A study of Rattus norvegicus with 67 samples.

Results

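In the sperm of F3 generation rats, 285 windows of 1000 bp held far more histone H3 ChIP-Seq reads in a few animals than in the rest, and the longest runs of such windows were largely raised in the same animals on several chromosomes. The windows were chosen by the counts themselves, in the 50 of 66 animals with at least 40000000 reads in the table. A window was taken where the median over these animals was at least 0.2 RPM (the window's reads scaled to the animal's table total, the usual unit of depth-scaled counts), at least 3 animals reached 2.5 times that median, and no animal lay below 0.2 times the median. An animal at 2.5 times the median or more is called raised below, and the fold is its RPM divided by the median animal's RPM. Of 2782040 windows in the table, 2615741 lie on chromosomes 1 to 20 outside chromosome 1 from 75 to 78 Mb, 2300413 of these reached the median floor, and 285 (0.0124%) met the whole rule. A further 67 windows with 3 raised animals were left out because an animal was too low. The fold, the number of raised animals and the spread between animals chose these windows and are given as description, without a test.

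Rats of the outbred strain Hsd:Sprague Dawley SD (Harlan) were studied 3 generations after treatment of pregnant F0 females. In the atrazine lineage these females received 25 mg/kg of the herbicide atrazine on gestation days 8 to 14, and in the control lineage they received the vehicle dimethyl sulfoxide (DMSO). The F3 males were not exposed themselves, and their cauda epididymal sperm was taken in adulthood. Counts were given for 50 atrazine lineage animals, with 19 without disease, 14 with multiple disease, 5 lean, 5 with late puberty, 4 with testis disease and 3 with kidney disease. The 16 control lineage animals with counts were 9 without disease, 3 obese, 2 with multiple disease, 1 with late puberty and 1 with kidney disease. The treatment tag in the sample list goes against the lineage in the title for all control lineage animals, which are tagged atrazine, and for 13 atrazine lineage animals (M57 to M69), which are tagged DMSO, and the title and lineage tag were followed. The labels used here name no litter or sire for an animal, so relatives within a lineage cannot be told apart from unrelated animals.

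When sperm mature, protamines replace most of the histones of the chromatin, and a small part of the genome keeps them. Precipitation with an antibody to histone H3 collects the DNA that is still on histones, and the reads in a window then follow both how much of that DNA carries histone and how many copies of it the genome holds. Outbred animals can differ in the number of copies of a sequence, and copies that the reference assembly does not hold apart are counted at 1 place. A rise of this kind is what a duplicated stretch of DNA would also give. No library of input DNA is among the counts, so more copies of the DNA and more histone on each copy cannot be told apart, and the windows are called raised windows below.

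Totals in the table were between 19909382 and 239635003 reads, with a median of 57082912. The labels give no lane or batch. Over all windows with the median floor, M22 with 71916679 reads was raised in 18730, M42 in 2860, M17 in 2817, M19 in 1543 and M20 in 792, and each of the other animals used by the rule in at most 650. Among the 16 animals under the total, M48 was raised in 271239 and M28 in 116487 windows. Without M17, M22 and M42, the same rule gave 220 windows, of which 209 were among the 285. Of the 285, 71 had fewer than 3 raised animals besides these, 60 of them single windows, and they lay on 17 chromosomes.

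Raised windows were found on all 20 chromosomes, but unevenly. Chromosome 16 held 55, or 0.0695% of its windows with the median floor, chromosome 5 held 36 (0.0235%), chromosome 10 held 26 (0.0254%), and chromosomes 13 and 19 held 1 each. Windows with at most 2 other windows between them were joined into 137 runs. Single windows made 104 of the runs and pairs made 8, while 25 runs of at least 3 windows held 165 windows (57.9%). Joined within 100 kb, the windows formed 102 stretches, of which 17 had at least 3 windows. The median level of the windows was 0.386 RPM, close to 0.383 RPM over all windows with the floor. Windows above 5 times that level were 5.61% of the raised windows and 0.216% of all windows with the floor.

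The values closest to each threshold show how finely the rule divides. A window at chr10:82522001-82523000 was taken with 2.501 in the lowest of its 3 highest animals, and one at chr3:168062001-168063000 was not, with 2.4998. The lowest fold of a taken window was 0.2001 at chr5:77694001-77695000, and 0.1998 kept out chr1:224285001-224286000. The lowest median was 0.2011 RPM at chr10:82534001-82535000, and chr1:181751001-181752000 was not taken with 0.1996 RPM.

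The longest run lay at chr5:77659001-77687000 (Rnor_6.0), with 26 raised windows among 28. Of the 50 animals, 9 were raised over the whole run, and all of them were of the atrazine lineage. The folds were 4.89 in M26, 3.81 in M41, 3.74 in M40, 3.58 in M27, 3.27 in M29, 2.89 in M39, 2.73 in M20, 2.72 in M62 and 2.71 in M19. The highest control lineage animal was M17 with multiple disease, at 2.36, and the other 11 control animals were between 0.803 and 1.35. The 95% exact Poisson interval for counting error was 4.70 to 5.08 in M26 with 2553 reads, 2.56 to 2.86 in M19 with 1285 reads, and 2.23 to 2.49 in M17 with 1235 reads. Atrazine lineage animals had a mean fold of 1.58 ± 1.10 (SD, n = 38). Control animals had a mean of 1.09 ± 0.434 (SD, n = 12), and the ranges overlapped, at 0.665 to 4.89 and 0.803 to 2.36, respectively.

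Chromosome 16 held the largest group, with 52 raised windows in 5 runs between chr16:64898001-64985000. In the longest of these runs, chr16:64913001-64937000 with 20 windows, 8 of the 9 animals above were raised. The folds were 5.09 in M26, 3.92 in M27, 3.79 in M40, 3.62 in M29, 3.51 in M41, 3.16 in M39, 2.77 in M20 and 2.68 in M19, followed by 2.17 in M62 and 2.04 in M17. The next animal was at 1.23, so that these 10 animals stood apart from the other 40. Neighbouring windows of this run differed in size: at chr16:64932001-64933000 the highest animal reached 13.9 times the median and 11 animals were raised. The runs at chr16:64898001-64904000, chr16:64940001-64950000, chr16:64953001-64963000 and chr16:64975001-64985000 were raised in 7, 7, 8 and 9 animals, each of them among the same 9.

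**Figure D1:**
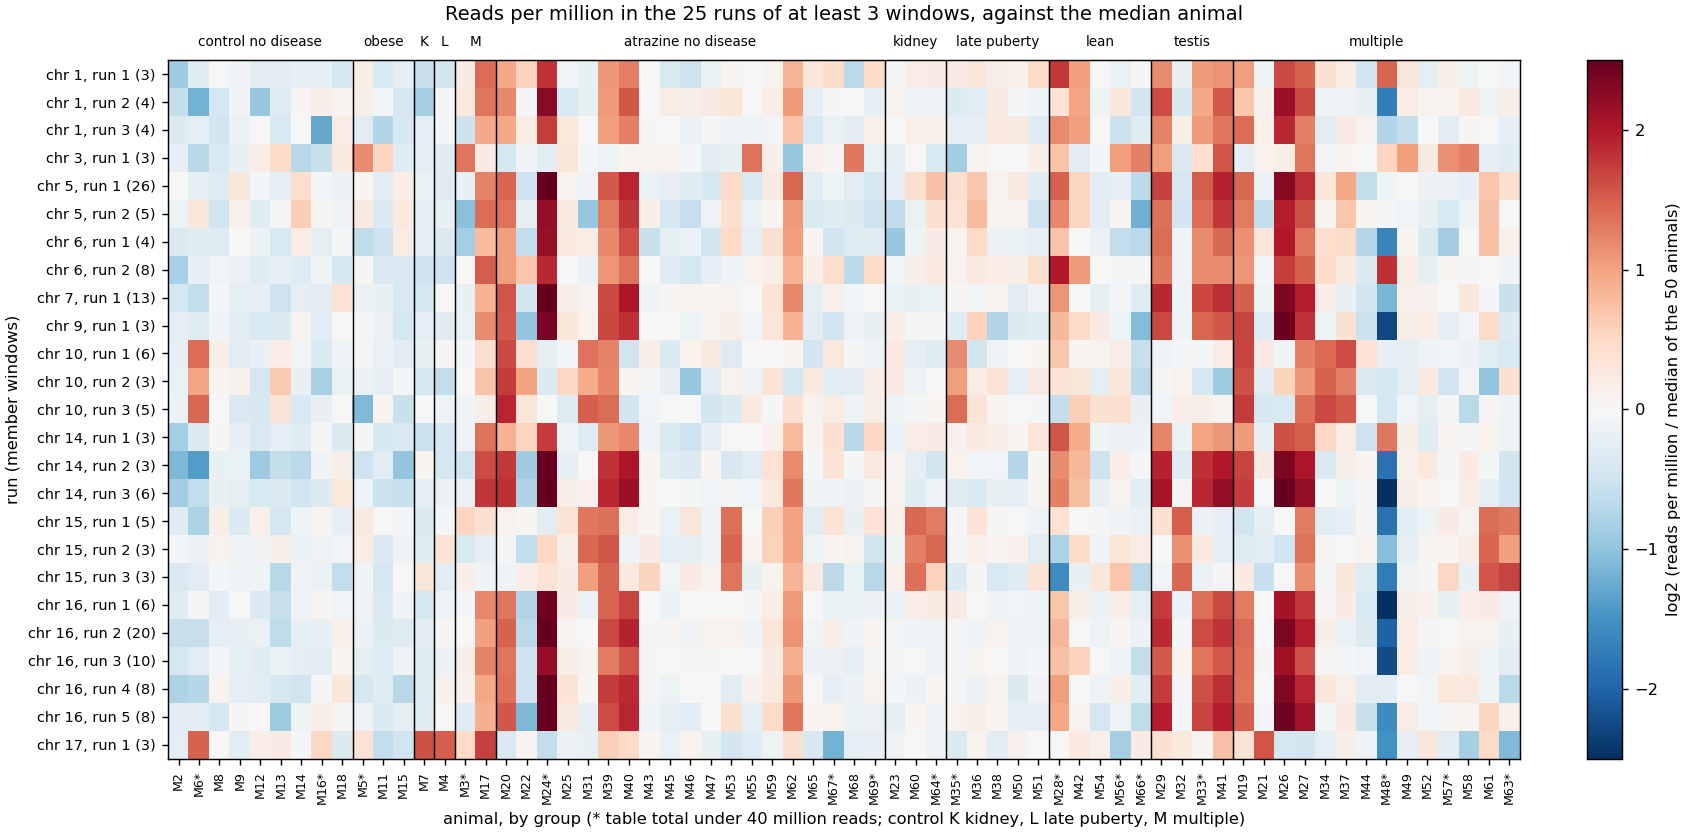
Each row is 1 of the 25 runs of at least 3 raised windows, with the number of its windows, and each column is 1 of 66 animals by group. Colour is the log2 of the animal's RPM over the run divided by the median of the 50 animals used by the rule. Columns M19, M20, M26, M27, M29, M39, M40 and M41 are red across chromosomes 5, 7, 9, 14 and 16, as is M24, which the rule did not use.

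The same animals were raised on further chromosomes. At chr7:10262001-10275000, a run of 13 windows, the folds were 5.06 in M26, 4.05 in M40, 3.88 in M27, 3.69 in M29, 3.61 in M41, 3.12 in M39, 2.98 in M20 and 2.80 in M19. At chr14:101988001-101995000, a run of 6 windows and, among the 25 runs, the one with the highest median fold of its raised animals (3.94), they were 6.25 in M26, 4.60 in M27, 4.59 in M41, 4.42 in M40, 4.19 in M29, 3.68 in M39, 3.55 in M20, 3.38 in M19 and 2.5 in M62, and control animal M17 was raised too, at 3.47. At chr14:101972001-101975000, 9 animals were raised with a median fold of 3.81, again with M17 as the only control lineage animal. At chr9:21873001-21876000, 8 of the 9 animals were raised, from 2.91 in M20 to 5.45 in M26. M26 was the highest of the 50 animals in 17 of the 25 runs.

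Of the 25 runs, 20 had at least 50% of their raised animals among the 9 animals of the longest run, and these 20 runs held 145 windows on 9 chromosomes. Window by window, 197 of 285 (69.1%) had at least 50% of their raised animals among the 9, and 163 of these lay on chromosomes other than 5. The 50 animals and 285 windows gave 1471 raised values, of which 1089 (74.0%) came from the 9 animals. The 9 animals were named by the longest run, which these counts include. Outside chromosome 5, 876 of 1235 raised values (70.9%) came from them.

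Run pairs differed in how far they shared animals. The run on chromosome 7 shared 8 of its 8 raised animals with the longest run, which is 100% of its own and 88.9% of the 9. The 3 runs on chromosome 10 shared 2 of 5 (40.0% of their own and 22.2% of the 9), 2 of 3 (66.7% and 22.2%) and 4 of 7 (57.1% and 44.4%), the first run on chromosome 15 shared 1 of 5 (20.0% and 11.1%), and the run on chromosome 17 shared 0 of 4.

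**Figure D2:**
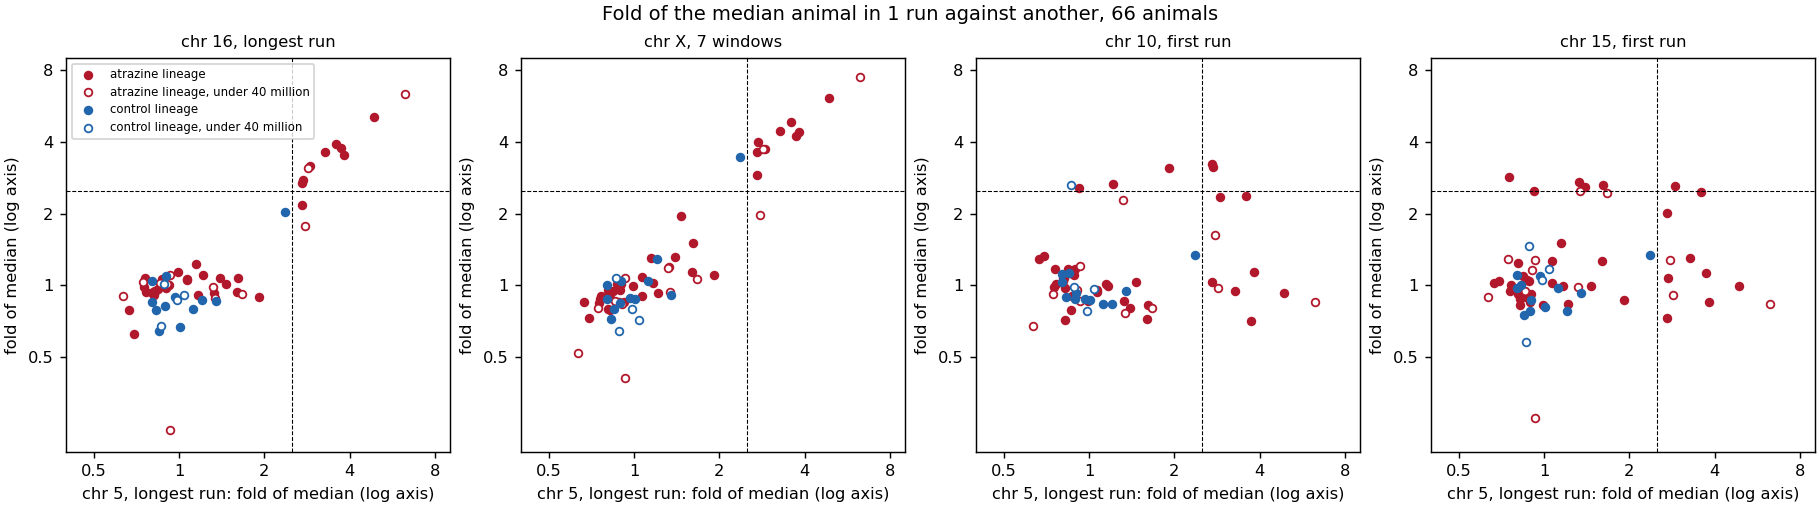
Each point is 1 of 66 animals, with its fold in the longest run on chromosome 5 on the horizontal axis and its fold in another run on the vertical axis, both on log axes, and dashed lines at 2.5. On chromosomes 16 and X the animals above the line on chromosome 5 are above it too, from M24 at 6.28, 6.34 and 7.5 downwards, except M62 at 2.17 on chromosome 16 and M28 at 1.77 and 1.97, whereas on chromosomes 10 and 15 some of the raised animals lie below the line on chromosome 5.

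Chromosome X was not searched by the rule. Applied there, the same conditions gave 14 windows among 23170 with the median floor, and 9 of the 14 had at least 50% of their raised animals among the 9. Over 7 adjoining windows at chrX:150612001-150619000, the 9 animals had folds between 2.90 and 6.09, with a median of 4.22. The other 41 animals were between 0.722 and 3.47, with a median of 0.936, and only M17 among them was raised. At 4 adjoining windows, chrX:80454001-80458000, 7 to 10 animals were raised, among them M29, M31, M41, M51, M53 and M61 in each. In the stretch of chromosome 1 that the rule left out, 2 windows met the conditions, and neither had at least 50% of its raised animals among the 9.

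Summed over 20 windows between chr10:82520001-82661000, 7 animals were raised, though not each at every window. Of these, M19, M20, M27 and M39 were among the 9 and M31, M34 and M37 were not. In the first run there, chr10:82520001-82530000 with 6 windows, the raised animals were M19 (3.22), M20 (3.15), M37 (3.11), M34 (2.67) and M31 (2.55), with M27 at 2.38 and M39 at 2.35. The next animal used by the rule was control animal M17 at 1.34. In a later run, chr10:82624001-82630000, the same 7 animals were raised, from 2.59 in M27 to 3.73 in M20. M26, the highest of the 50 animals in the longest runs of chromosomes 5, 7, 14 and 16, was not raised in either run. The highest of the 12 control animals used by the rule was at 1.34 and 1.25 in these 2 runs.

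On chromosome 15 yet another set was raised. At chr15:38652001-38657000, a run of 5 windows, M32 reached 2.86, M60 2.71, M61 2.65, M39 2.61 and M53 2.59, with M31 at 2.49 and M27 at 2.46 just under the threshold. At chr15:39680001-39683000 further along, the raised animals used by the rule were M61, M39, M32, M60 and M53 again, between 2.52 and 2.97. The highest control animal used by the rule was at 1.34 and 1.24. Another run of this stretch, chr15:38702001-38707000, was raised in M39 (2.95), M53 (2.75), M61 (2.73), M31 (2.70) and M27 (2.55). Among the animals used by the rule, the raised values in these chromosome 15 runs thus covered a narrower range than those on chromosomes 5 and 16.

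One run was raised mainly in the control lineage. At chr17:63122001-63125000, with 3 windows, M17 reached 3.25, M7 with kidney disease 3.00 and M4 with late puberty 2.80 among the controls, and the multiple disease animal M21 of the atrazine lineage reached 2.98. The next animal used by the rule was M41 at 1.66. Summed over 7 single windows spread along 300 kb at chr17:57637001-57937000, the same 4 animals were raised, with folds between 3.18 and 3.70. Not each of the 4 was raised at every 1 of the windows. The window at chr17:57679001-57680000 is annotated by the study with the gene RGD1564347. Of the 25 runs, none was raised only in control animals.

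Further runs had other members. At chr3:153063001-153068000, M41 (2.97), M55 (2.56) and M27 (2.54) were raised, with M68 at 2.49 and M58 at 2.39 close behind. A pair of windows at chr6:5103001-5105000 was raised in 12 animals, the 5 control animals M2, M8, M9, M14 and M15 and 7 atrazine lineage animals, with a median fold of 2.91. The run at chr6:31052001-31065000 had a level in the median animal of 5.72 RPM per window, against a median of 0.386 RPM over the 285 windows. It was raised in M26 (3.30), M17 (2.85), M27 (2.82) and M40 (2.55), and another 8 animals lay between 1.5 and 2.5. Among the animals under the total, M28 (4.01), M24 (3.69) and M48 (3.54) were raised there too. The run at chr14:46530001-46535000, at 6.26 RPM, was raised in M26 (3.03), M27 (2.85) and M17 (2.57), with 8 animals between 1.5 and 2.5. Under the total, M24 (3.34) and M28 (2.96) were raised there. M17, M28 and M48 had many raised windows elsewhere, and the part of that in these runs was not tested.

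**Figure D3:**
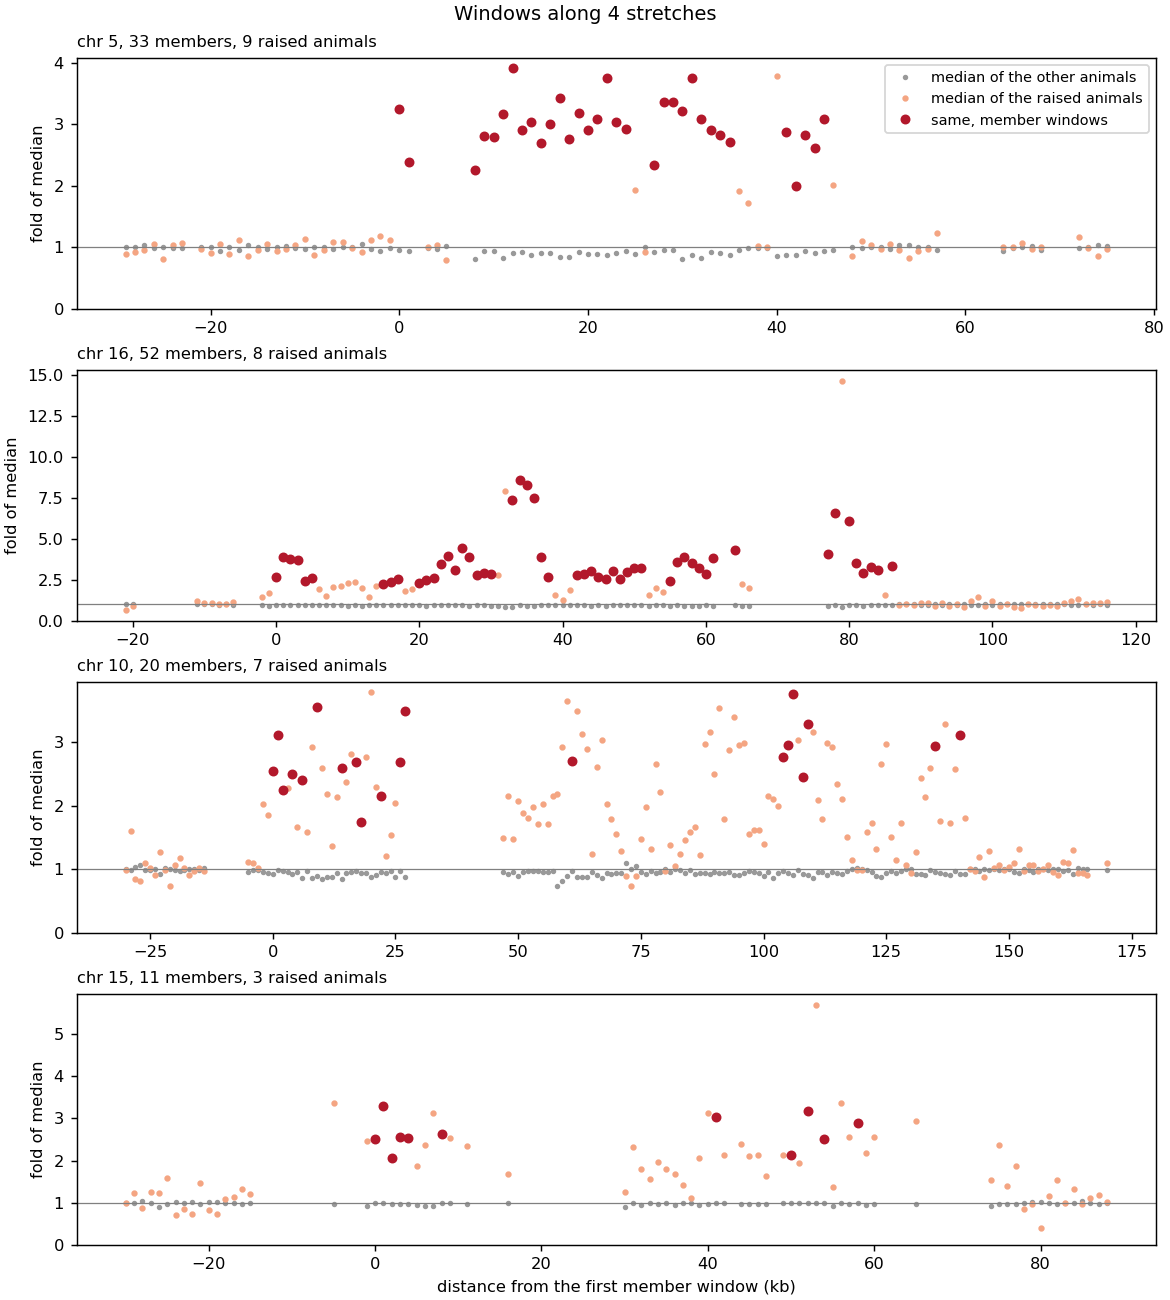
Windows along 4 stretches by distance in kb from the first raised window, with the fold of the median animal on the vertical axis. Red points are the median fold of the raised animals at the raised windows, light points the same at other windows, and grey points the median of the other animals, and windows with a median under 0.1 RPM are left out. In the 10 kb before and after the chromosome 5 stretch the raised animals have median folds of 1.11 and 1.09. The values are 1.34 and 1.04 on chromosome 16, 1.54 and 1.17 on chromosome 10, and 4.65 and 2.21 on chromosome 15.

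Beside the stretches the raised animals fell back to the level of the others in some places and not in others. In the 10 kb before and after the chromosome 5 stretch, chr5:77651001-77697000, the raised animals had median folds of 1.11 and 1.09, and the other animals 0.995 and 0.948. On chromosome 16 the corresponding values were 1.34 before and 1.04 after, against 0.958 and 0.997. Of the 17 stretches of at least 3 windows, 13 had the raised animals at a median fold of 1.5 or more in the 10 kb on at least 1 side. The highest such value was 4.65 before chr15:38652001-38711000, with 2.21 after it, and at chr17:63122001-63125000 the values were 2.04 and 2.07. Between the raised windows of the chromosome 16 stretch lay 22 windows with the median floor that the rule did not take, and there the raised animals had a median fold of 2.18 and the others 0.982. On chromosome 10, 36 such windows gave 1.98 against 0.975, and on chromosome 5, 8 such windows gave 1.43 against 0.973. These windows were outside the rule but lie among the chosen ones.

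The 16 animals under the total took no part in the choice. In 14 of them, leaving out M28 and M48 for their many raised windows elsewhere, 8.07% of the values at the 285 windows reached 2.5 times the median, against 0.159% over all windows with the median floor. At least 1 of these 14 animals was raised in 204 (71.6%) of the 285 windows, against 2.17% of all windows with the floor. Of the 25 runs, 23 were raised in at least 1 of the 14, and M24 was raised in 17 of these. Much of this came from M24 and M33: without M24 the share was 4.48% against 0.167%, and without both 2.28% against 0.177%. With all 16 animals the values were 11.1% against 1.19%. These animals have fewer reads than the rest, and the part of depth in the values was not tested.

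Among these animals, M24 without disease had the highest fold of all 66 at the longest run, 6.28, with a 95% counting interval of 6.04 to 6.52, and at chr16:64913001-64937000, 6.34. M24 was raised in 17 of the 25 runs and M33 with testis disease in 11. M33 reached 2.85 on chromosome 5 and 3.11 on chromosome 16. On chromosome 10, M6 without disease of the control lineage reached 2.63 and M35 with late puberty 2.28 at the first run, and 2.71 and 2.65 at the later one. On chromosome 15, M63 with multiple disease and M64 with kidney disease lay just under the threshold at the first run, M64 at 2.43. M64 was raised at chr15:38702001-38707000, at 2.71, and M63 at chr15:39680001-39683000, at 3.21. On chromosome 17, M6 reached 2.79. The sets of animals on chromosomes 10 and 17 therefore each held a control animal that the rule had not used.

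**Figure D4:**
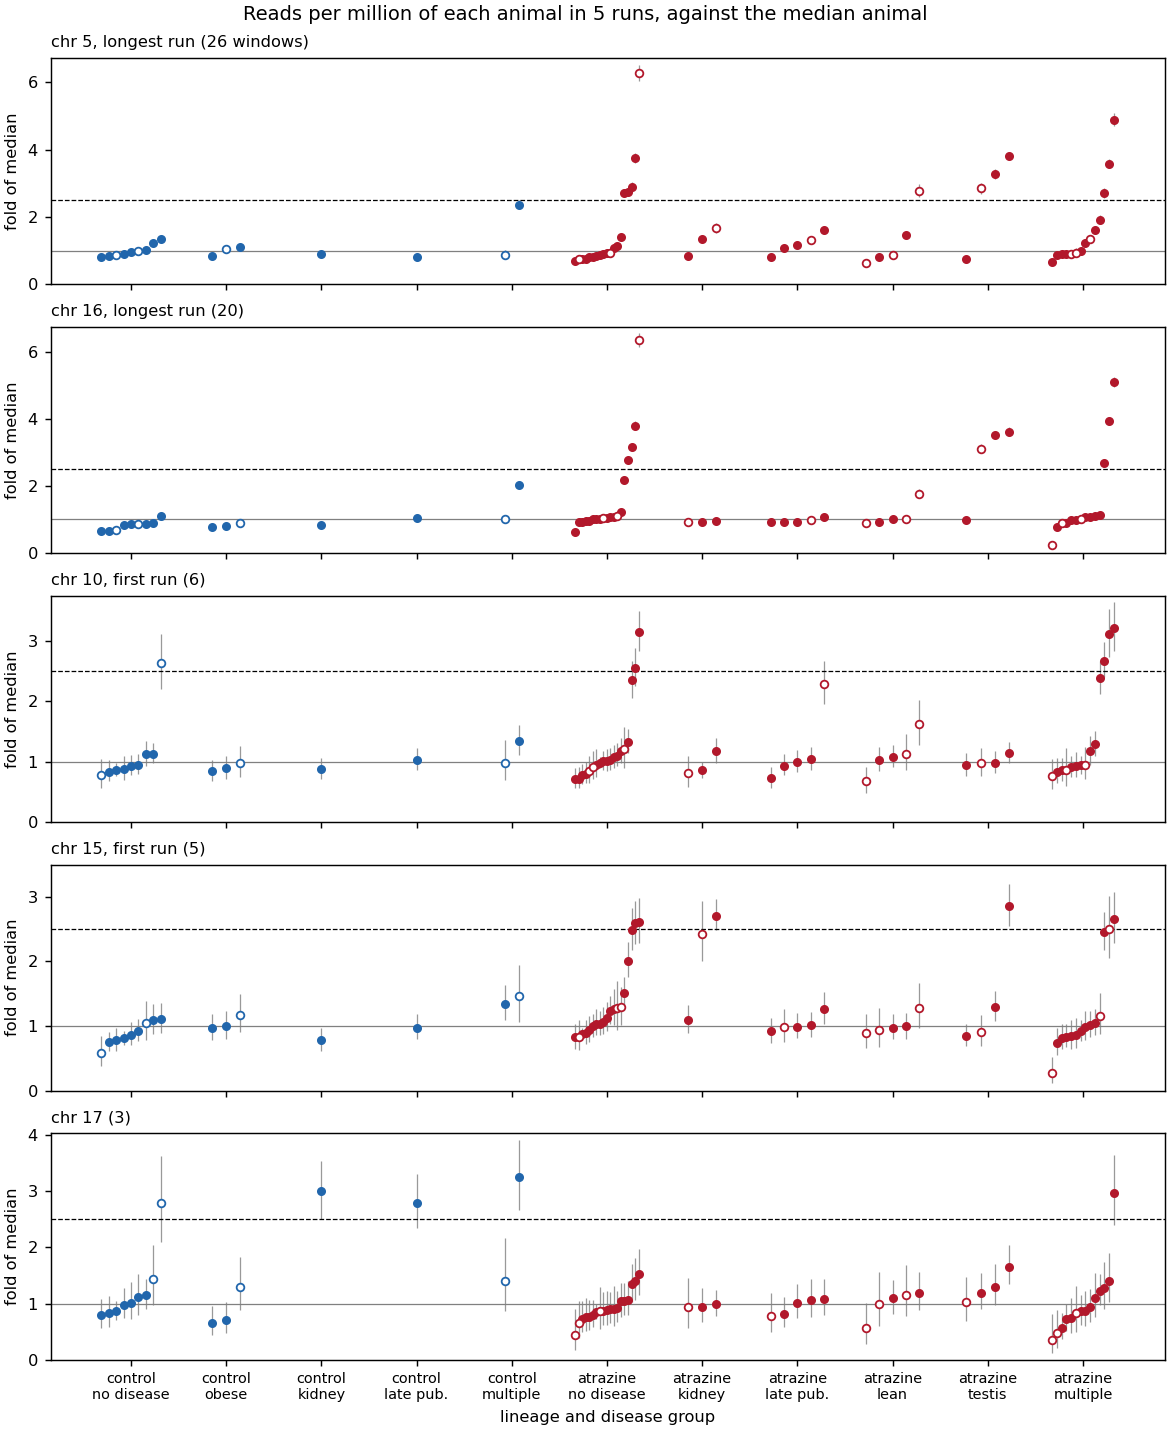
Fold of each animal in 5 runs by lineage and disease group. Blue points are control and red points atrazine lineage animals, open points are animals under 40000000 reads, grey lines are 95% exact Poisson intervals for counting error, and the dashed line is at 2.5. On chromosomes 5 and 16 the control animal nearest the line is M17, at 2.36 and 2.04, whereas on chromosome 17 3 control animals used by the rule lie above it.

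Sharing across the lineages depended on M17. Of the 285 windows, 97 were raised in animals of both lineages, 186 only in atrazine lineage animals and 2 only in control animals, where 38 atrazine and 12 control animals could be raised. In 78 of the windows, M17 was the only raised control animal, and 21 windows were raised in another control animal. Of the 137 runs, 52 were raised in both lineages, and 16 without M17. Of the 25 longer runs, 8 were raised in both lineages, 7 of them through M17 alone, and 17 only in the atrazine lineage. These counts take in only the animals used by the rule. Of the control animals under the total, M6 was raised in the runs at chr10:82520001-82530000 (2.63) and chr10:82624001-82630000 (2.71). M3 was raised in the run at chr3:153063001-153068000 (2.52). These runs are among the 17. M17 was itself raised in 2728 windows besides these 285, and the part of that in the sharing was not tested.

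The number of raised windows per animal was uneven within the groups. In the atrazine lineage it ran from 1 to 163 with a median of 7.5 (n = 38), and in the control lineage from 0 to 89 with a median of 3.0 (n = 12). Without disease, atrazine lineage animals had between 1 and 131 (median 5.5, n = 16). Multiple disease animals had between 1 and 163 (median 12, n = 11). Of the 3 testis disease animals used by the rule, M32 had 11, M29 had 125 and M41 had 127. Late puberty animals had 2 to 4 (n = 4), the 2 lean animals 2 and 18, and the 2 kidney disease animals 4 and 9. Of the 50 animals, 8 had at least 100, and 27 had at most 5.

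**Figure D5:**
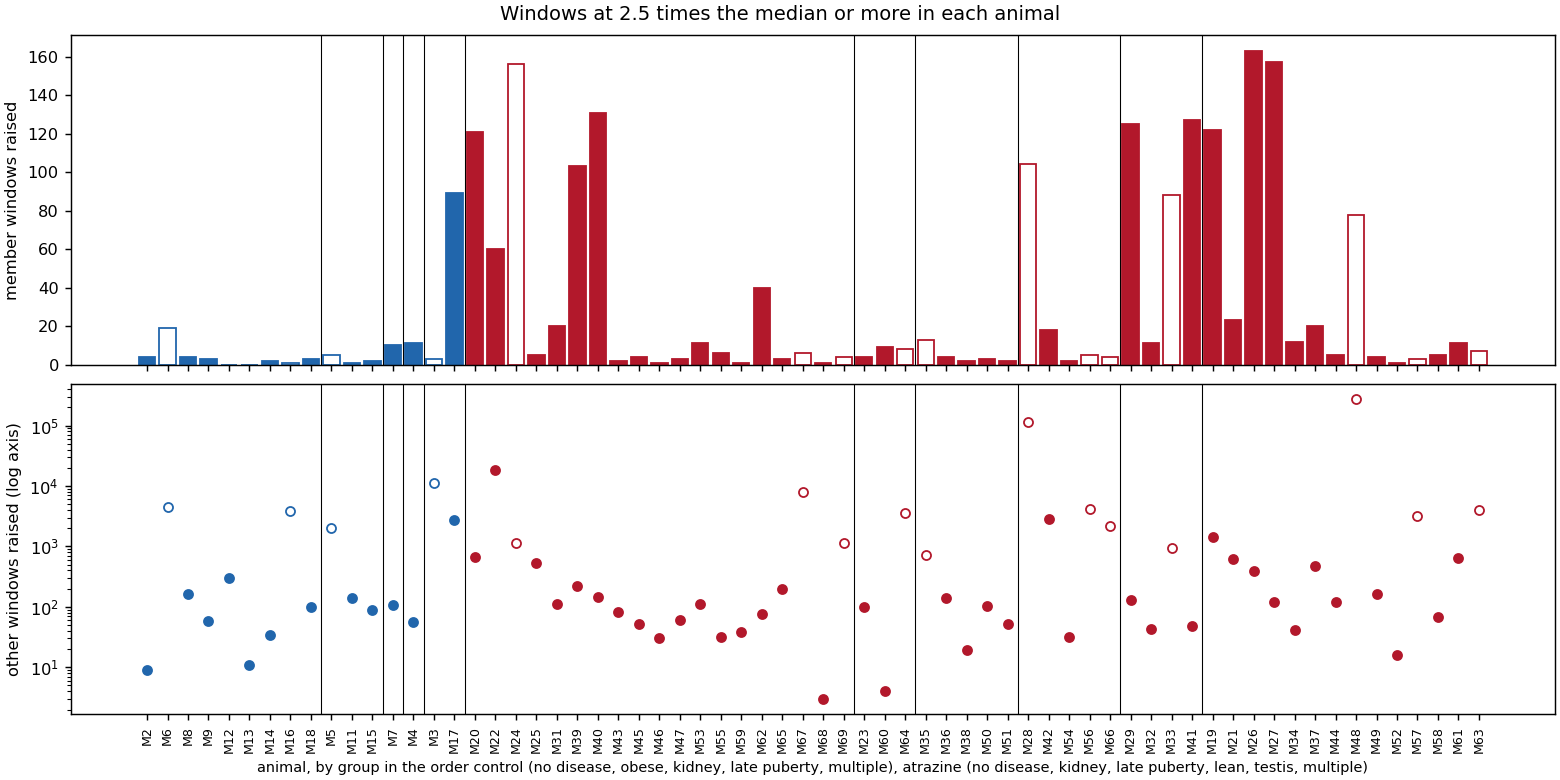
The upper panel gives the number of the 285 windows raised in each animal and the lower panel, on a log axis, the number of other windows with the median floor raised in it, red for the atrazine and blue for the control lineage and open for animals under 40000000 reads. M26, M27 and M40 are highest in the upper panel among animals used by the rule, with 163, 157 and 131, but are near the others in the lower one, where M22, M42 and M17 stand out.

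The 9 animals of the longest run came from 3 groups, 4 without disease (M20, M39, M40 and M62), 3 with multiple disease (M19, M26 and M27) and 2 with testis disease (M29 and M41). With the animals under the total, 3 of 4 testis disease, 3 of 14 multiple disease, 1 of 5 lean, 0 of 5 late puberty and 0 of 3 kidney disease animals were raised there. Of the multiple disease animals whose labels name testis disease, M26 was raised there. M21 (0.893), M37 (1.92), M48 (0.930) and M52 (0.899) were not. Among the 17 animals without disease that each disease group is compared with, 5 were raised. All 5 disease comparisons share these 17 animals.

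The lineages and disease groups were compared window by window with edgeR's quasi-likelihood test over every window of the table. The rule used neither lineage nor disease, but it used the same counts. A window that was chosen through raised animals of 1 lineage alone, as 186 were in the atrazine and 2 in the control lineage, tends to differ between the lineages by that choice, and 38 atrazine but 12 control animals could be raised. Each disease group is compared with 17 animals without disease, of which 5 were raised at the longest run. Of these, M20, M39, M40 and M62 took part in the choice of windows. A window chosen through them can be lower in a disease group by that choice. Animals with disease took part in the choice too. Raised at the longest run were M29 and M41 with testis disease and M19, M26 and M27 with multiple disease. A window chosen through such animals can be higher in their group by that choice. Windows of 1 run also share their animals. The counts and p-values below therefore describe the raised windows and are not independent evidence of a difference between groups. All 285 windows passed the filter of 10 reads on average and were tested in each comparison.

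In the comparison of 50 atrazine with 16 control lineage animals, no raised window passed an adjusted p (Benjamini-Hochberg over all windows) of 0.05 in edgeR, where 3 of all 2482843 windows did (0.000121%), and the smallest adjusted p was 0.603. At p below 0.0001, 3 raised windows were higher and 2 lower in the atrazine lineage, 1.75% against 0.0133% of all windows, and DESeq2 gave 4 and 0, with 3 and 2 among 10000 random windows. Without M48, 1 raised window passed the adjusted p (0.000923% of all windows), and 66 were higher and 3 lower at p below 0.0001 (0.0308% of all windows). At p below 0.05, 182 (63.9%) were higher and 12 (4.21%) lower, against 3.57% and 2.66% of all windows. The median log2 fold change over the 285 windows was 0.54, against 0.005 over all windows. In the longest run it was 0.62, with 23 of 26 windows higher at p below 0.05, and at chr16:64913001-64937000 it was 0.76 with 20 of 20. At chr17:63122001-63125000 it was -0.49, with 3 of 3 windows lower. In the comparison of 19 atrazine with 9 control animals without disease, which leaves out M17, 15 raised windows passed the adjusted p in edgeR, against 0.00134% of all windows (34 windows), and 7 of the 15 lay in the runs on chromosome 16.

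The raised window with the smallest p of the lineage comparison lay at chr19:50419001-50420000, a single window raised in 14 of 38 atrazine lineage and 0 of 12 control animals, the most animals of any run. Its level was 0.215 to 2.57 RPM (median 0.474, n = 50) in the atrazine lineage and 0.171 to 0.615 RPM (median 0.358, n = 16) in the control lineage. The ranges overlap, with the highest animals all in the atrazine lineage. The log2 fold change was 1.10 ± 0.25 (SE), p = 2.42e-05 and adjusted p = 0.603 in edgeR. The lowest p in the other direction lay at chr17:42860001-42861000, annotated by the study with Prl3d2, a gene of the prolactin family that codes for a placental lactogen. It was at 0.0465 to 0.473 RPM (median 0.228) in the atrazine and 0.0633 to 1.10 RPM (median 0.366) in the control lineage, with a log2 fold change of -0.82 ± 0.19 (SE) and an adjusted edgeR p of 0.645. The raised animals there were M2, M9 and M11 and, under the total, M3, M5 and M16, all of the control lineage. It rests on a median of 15.5 reads per animal and on 2 reads in the lowest.

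In the 5 late puberty animals, 0 of 285 windows passed the adjusted p in edgeR (0% of all 2449235 windows), 13 were lower and 0 higher at p below 0.0001 (4.56% against 0.00359% of all windows), and DESeq2 gave 0. Leaving out M35, M36, M38, M50 or M51 gave 5, 3, 3, 3 and 2 lower windows at p below 0.0001, with 1 higher window without M50, against 0.00293%, 0.00278%, 0.00323%, 0.00454% and 0.00323% of all windows. At p below 0.05, 131 (46%) were lower and 3 (1.05%) higher, against 2.01% and 1.48% of all windows. The median log2 fold change was -0.46 over the raised windows and -0.009 over all windows. At chr14:101988001-101995000 the 6 windows had log2 fold changes between -1.64 and -0.92. The smallest p again lay at chr19:50419001-50420000, with 0.482 RPM in M35, 0.419 in M38, 0.370 in M36, 0.257 in M51 and 0.253 in M50, against 0.215 to 1.82 RPM (median 0.616) in the 17 animals without disease. All 5 lay under the median of the 17 but inside their range, with a log2 fold change of -1.32 ± 0.27 (SE) and an adjusted edgeR p of 1. The smallest p among windows higher in late puberty was at chr17:89654001-89655000, raised in 10 animals, with 1.81 RPM in M51, 1.69 in M38, 1.54 in M36, 1.17 in M35 and 0.663 in M50, against 0.104 to 1.82 RPM (median 0.494) in the 17, and an adjusted edgeR p of 1.

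In the 4 testis disease animals, no raised window passed the adjusted p in edgeR (1 of all 2456475 windows, 4.07e-05%), and 0 were at p below 0.0001 in edgeR (0.00529% of all windows) and in DESeq2. At p below 0.05, 140 (49.1%) were higher and 16 (5.61%) lower, against 1.54% and 2.12% of all windows. The median log2 fold change was 0.47, against -0.009 over all windows. In the longest run the folds were 3.81 in M41, 3.27 in M29, 2.85 in M33 and 0.751 in M32, and the animals without disease lay between 0.695 and 6.28 over all 19. M32 was apart from M29, M33 and M41. The count of 140 rested on single animals: it was 40 without M41 and 54 without M29 (against 1.70% and 1.35% of all windows), 103 without M33 and 165 without M32 (1.25% and 1.44%). At p below 0.0001, 18 raised windows were higher without M32 (0.00486% of all windows) and 0 without each of the others. The smallest p lay at chr3:153063001-153064000, with 1.28 RPM in M41, 0.982 in M29, 0.684 in M33 and 0.314 in M32, against 0.236 to 1.15 RPM (median 0.388, n = 17), and an adjusted edgeR p of 1. The lowest p among windows lower in testis disease was at chr7:77179001-77180000, with 0.419 RPM in M32, 0.405 in M33, 0.365 in M41 and 0.228 in M29, against 0.225 to 1.52 RPM (median 0.601), a log2 fold change of -0.99 ± 0.28 (SE) and an adjusted edgeR p of 1.

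In the 3 kidney disease animals, 0 raised windows passed the adjusted p in edgeR (0% of all windows), 0 were at p below 0.0001 in edgeR (0.00239%) and in DESeq2, and at p below 0.05 11 (3.86%) were higher and 89 (31.2%) lower, against 1.17% and 1.59% of all windows. The 89 became 43 without M60 and 56 without M23 (against 2.37% and 1.65%), and 70 without M64 (1.28%). It was 28 (against 2.32%) without all DMSO-tagged animals, which leaves M23 alone in the kidney disease group, assumed to vary like the others, and also removes M62, M65, M67 and M69 of the 17. The window with the smallest p among those higher was in the first run on chromosome 15, chr15:38656001-38657000, with 0.909 RPM in M60, 0.810 in M64 and 0.460 in M23, against 0.209 to 0.881 RPM (median 0.328, n = 17). All 3 were above the median of the 17 and M60 above all of them, with an adjusted edgeR p of 1. At chr2:159011001-159012000, the lowest on the other side, M23 was at 0.476, M64 at 0.211 and M60 at 0.121 RPM, against 0.148 to 4.74 RPM (median 0.447), and the adjusted edgeR p was 1. That window was raised in 11 animals with a median fold of 6.12, the 9 of the longest run with M17 and M42.

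In the 5 lean animals, 0 raised windows passed the adjusted p in edgeR (0% of all windows), and 0 were at p below 0.0001 in edgeR (0.0401%) and in DESeq2. Among 10000 random windows DESeq2 gave 4 higher and 4 lower here, and 0 in each of the other disease comparisons. At p below 0.05, 20 (7.02%) were higher and 47 (16.5%) lower, against 5.99% and 5.39% of all windows, so the share higher was near that of all windows. Without M28, 6 were higher and 79 lower, against 2.40% and 3.93% of all windows. Without M54 they were 32 and 27 (7.25% and 6.56% of all windows), and without M66 35 and 33 (8.33% and 8.36%). Without M42 they were 17 and 33 (4.14% and 2.75%), and without M56 22 and 30 (6.61% and 6.22%). The counts thus moved with single animals, and so did the shares over all windows. The smallest p on the higher side was at chr5:58002001-58003000, with 1.89 RPM in M28, 1.23 in M54, 1.17 in M56, 1.12 in M42 and 0.355 in M66, against 0.172 to 1.26 RPM (median 0.482) in the 17, and an adjusted edgeR p of 0.239. On the lower side it was at chr16:64918001-64919000, with 1.05 RPM in M54, 0.982 in M28, 0.620 in M56, 0.532 in M66 and 0.237 in M42, against 0.514 to 4.11 RPM (median 1.14), and an adjusted edgeR p of 0.245. M28, the highest animal at the former window, was raised in 116487 of the windows with the median floor, and the part of that was not tested.

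In the 14 multiple disease animals, 0 raised windows passed the adjusted p in edgeR (0% of all windows), and 0 were at p below 0.0001 in edgeR (0.00137%) and in DESeq2. At p below 0.05, 21 (7.37%) were higher and 2 (0.702%) lower, against 2.00% and 1.32% of all windows. Without M48 the counts were 15 and 6, against 1.83% and 2.06%. The median log2 fold change was 0.05, against 0.019 over all windows. M26, M27 and M19 of this group had 163, 157 and 122 raised windows. Of the 17 animals without disease, M24, M40, M20 and M39 had 156, 131, 121 and 103. The smallest p on the higher side lay at chr11:87204001-87205000, with 0.141 to 4.91 RPM (median 0.409) against 0.144 to 0.765 RPM (median 0.321), a log2 fold change of 1.01 ± 0.39 (SE) and an adjusted edgeR p of 1. M48 was the highest animal there, and it was raised in 271239 of the windows with the median floor. On the lower side it lay at chr7:13182001-13183000, with 0.149 to 0.481 RPM (median 0.262) against 0.231 to 1.13 RPM (median 0.468), a log2 fold change of -0.79 ± 0.22 (SE) and an adjusted edgeR p of 1.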

How the data were processed

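Sperm chromatin of the F3 males had been precipitated with an antibody to histone H3 and sequenced. The authors trimmed the reads (Trimmomatic), aligned them to Rnor_6.0 (Bowtie2) and used MEDIPS to count them per 1000 bp window. The deposited table used here gives these raw counts, without normalization, for 66 animals with totals of 19909382 to 239635003 reads. Of the 5 disease tables only the headers were read, to see which animals they compare. RPKM columns and the columns of the authors' fold changes and p-values were not used.

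RPM values were computed from each animal's table total. Members and lists were chosen with earlier results of these data known. Runs join windows with at most 2 others between them, and an animal is raised in a run where its summed RPM reaches 2.5 times the median. Groups were compared in R 4.3.3 with edgeR 4.0.16 (TMM, a filter of 10 reads on average per animal, dispersion trend from 200000 random windows, quasi-likelihood test, Benjamini-Hochberg adjustment over all windows tested), and DESeq2 1.42.0 was run on the members and 10000 random windows. Runs named are the 10 with the most windows, the 5 with the highest fold, the 5 raised in the most animals, up to 5 raised in 1 lineage only, and those with the smallest p. Other runs described, on chromosomes 6 (5103001), 10 (82624001), 14 (46530001), 15 (38702001 and 39680001), 17 (57637001 to 63125000) and X, were chosen after their values were seen. Gene names are those the study's region lists give for an overlapping region, and no genome of this build was used.

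Among 2145 pairs of libraries, the smallest mean chi-square per window was 1.70 over 20000 windows, above sampling noise, so none was counted as a repeat. Intervals cover counting error only. Both the rule and the test were tested on simulated data. Alternatives changed the thresholds of the rule, the animals, the scaling, the filter and the tool.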

Additional observations from a re-analysis of the deposited data

Results flagged for a closer look

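In groups of 4 to 10 animals, 52 sets of values were examined for an animal far from the rest of its group, and 13 were found. Chance gives about 1 in 20 in values not chosen for their spread, but these windows were chosen because a few animals stand apart and several runs share animals, so the number of such cases is fixed in part by the choice and is not compared with chance. In the lean group M28 was far above the other 4 animals, at 1.77 times the median animal against 1.02 for the next in chr16:64913001-64937000, 2.06 against 1.10 in chr16:64953001-64963000 and 2.15 against 1.01 in chr7:10262001-10275000, and with 104 raised windows against 18. In the testis disease group M32 was far below the other 3, at 0.938 against 2.26 in chr6:31052001-31065000 and 0.799 against 3.56 in chr14:101972001-101975000. In the late puberty group M35 was far above the others at chr10:82520001-82530000, at 2.28 against 1.04, and had 13 raised windows against 4. In the same group M50 was lowest at chr14:101972001-101975000, at 0.612 against 0.950, and M36 highest at chr9:21873001-21876000, at 1.49 against 0.813. Among the control animals without disease M6 was far above the others at chr10:82520001-82530000, at 2.63 against 1.13, and had 19 raised windows against 4, and M18 was highest at chr14:101988001-101995000, at 1.20 against 0.879. The cause of these was not tested.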

How the results depend on the processing

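The number of raised windows and runs follows the rule's thresholds. From 285 windows in 137 runs, a median floor of 0.5 RPM left 93 in 30, a fold of 3 left 123 in 41, at least 5 raised animals left 132 in 39, and no animal below 0.5 times the median left 57 in 32. With all 66 animals the rule gave 12180 windows in 10286 runs, 166 of them among the 285. TMM library sizes gave 291 windows, 279 of them the same. Leaving out M48 changed nothing, since its total keeps it out of the rule. Chosen after seeing the data, leaving out M22 gave 90 runs, leaving out M17, M22 and M42 gave 80 runs, and in both cases the number of windows moved by less than 1.5 times. Runs raised in both lineages were 52 of the 137, and 76 or 14 where an animal had to reach 2 or 3 times the median over the run to be called raised, 16 without M17 and 16 without M17, M22 and M42.

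Over 44 settings of the 6 comparisons, 42 called no raised window in edgeR, where at most 92 of all windows were called. The exceptions were in the lineage comparison, with 1 window called without M48 (0.000923% of all windows) and 15 with animals without disease only (0.00134%). When 1 animal of the lean, kidney, testis or late puberty group was left out the count called was 0 throughout. In these fits at most 7 of all windows were called, so few calls could fall on the raised windows. At p below 0.0001 the lineage comparison went from 5 windows (0.0133% of all windows) to 16 without the animals tagged DMSO (0.0263%), 69 without M48 (0.0308%), 73 with animals without disease only (0.0153%) and 51 without M17, M22 and M42 (0.0232%), and the late puberty comparison from 13 (0.00359%) to between 2 and 5 when 1 late puberty animal was left out, to 7 with no filter beyond 1 read (0.0053%), to 3 with all 19 animals without disease (0.00336%), to 20 without the DMSO tag (0.00531%) and to 0 with DESeq2. The testis comparison went from 0 to 18 without M32 (0.00486%) and 2 with all 19 animals without disease (0.00474%), the lean comparison from 0 to between 0 and 2 without 1 lean animal (0.0137% to 0.149%) and 1 without the DMSO tag (0.0621%), and the multiple disease comparison from 0 to 1 without M48 (0.00457%). The cause was not tested. The kidney comparison without the DMSO tag leaves 1 kidney disease animal, which was assumed to vary like the others. No paired analysis was possible because an animal's number occurs in 1 group alone. Depth limits single windows more than runs: of the 50 animals, the lowest had 2 reads at some single windows and 421 at the longest run, where the lowest of all 66 had 194.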
